A study of Macaca mulatta with 64 samples.

Results

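The dentate gyrus (DG) and hippocampal field CA1 of the rhesus macaque were compared gene by gene, to describe how the transcriptomes of these neighbouring parts of one circuit differ in neuronal genes, once genes of myelin are set apart. The comparison used 16 of the 64 libraries of the series, 8 from DG and 8 from CA1. Each region gave 1 library for each age of 1, 4, 10 and 20 years and each sex, from healthy, socially housed animals without treatment. The animals numbered 16, with 2 for each age and sex, and a DG and a CA1 library with the same age and sex are called an animal set here (1F to 20M). The labels do not say whether a library holds RNA of both animals or whether a set shares animals, so p-values measure the spread between these sets. Polyadenylated RNA was sequenced from small tissue blocks, and values are RPKM, reads scaled to transcript length and library total. Genes were kept when at least 8 of the 16 libraries reached 1 RPKM, which left 11260 of 26654. Differences are on the log2(RPKM + 1) scale, DG minus CA1, with the standard error after ±, and understate changes of low genes.

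The dentate gyrus is the entry stage of the hippocampal circuit. Its granule neurons receive input from the entorhinal cortex and send mossy fibres, which store dynorphin and neurotrophins, to CA3. CA3 pyramidal neurons in turn excite CA1 pyramidal neurons, the main output of the hippocampus proper. The dentate gyrus is also known as a place where neurons are added after birth in many mammals. CA1 lies against the alveus, a sheet of myelinated axons, and myelin is made by oligodendrocytes.

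The 16 libraries held 322364 to 411357 total RPKM in DG and 374486 to 508979 in CA1, and the number of reads behind them is unknown. Mitochondrially encoded genes took 9.94% to 15.5% of DG totals and 10.5% to 13.8% of CA1 totals. Some libraries stood apart. RGS4, a regulator of G-protein signalling, was at 88.1 RPKM in DG 4F against 5.65 to 16.4 in the other 7 DG libraries, and at 136 and 134 in CA1 1F and 1M against 17.9 to 59.3 in the other 6 CA1 libraries. KIAA0748 followed, with 14.3 RPKM in DG 4F and at most 1.26 in the other DG libraries, and with 26.7 and 28.1 in CA1 1F and 1M. In 24 libraries from parietal, prefrontal and posterior cingulate neocortex RGS4 lay between 131 and 317 RPKM and KIAA0748 between 63.3 and 129. The part of these libraries in the results was not tested beyond the fits without them.

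A total of 5112 genes differed between DG and CA1 at an adjusted p under 0.05, which is 45.4% of those tested, with 2771 higher in DG (24.6%) and 2341 lower (20.8%). The median over all genes was 0.02. Most differences were small. With a log2 difference of at least 1 as well, 238 genes remained (2.11%), 73 higher in DG (0.648%) and 165 lower (1.47%). Of these, 71 of the 73 and 143 of the 165 moved the same way in 8 of 8 animal sets. Without the sets 1F, 1M and 4F, which hold the libraries that stood apart, 5576 genes were called, 2288 higher and 3288 lower, and 78 were higher and 298 lower by at least 1.

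Marker genes of dentate granule neurons were higher in the libraries labelled DG. Of 15 genes listed 10 passed the filter, 1 of them, TRPC6, through its DG libraries alone. Of the other 9 genes 8 were higher (all genes, 24.6%) and none was lower, and their median was 0.95. The list was drawn up with earlier results of these data known, those of NPY1R and PROX1 among them. These counts therefore describe the libraries and do not test the label. PROX1, the transcription factor that fixes granule cell identity, had a lowest, median and highest value of 2.09, 2.54 and 4.68 RPKM in DG and 0.61, 1.02 and 1.54 RPKM in CA1. The lowest DG library lay above the highest CA1 library, and the difference was 0.94 ± 0.10 (adjusted p = 3.7e-05). CALB1, the calcium buffer calbindin, ranged from 45.4 through 71.5 to 100.3 RPKM in DG and from 21.5 through 32.8 to 43.0 RPKM in CA1 (1.15 ± 0.13, adjusted p = 6.3e-05). TRPC6, a cation channel, was at 1.16 to 2.26 RPKM in DG and at 0.07 to 0.50 RPKM in CA1. PDZD2 was the member that did not differ beyond the test (-0.13 ± 0.08, adjusted p = 0.23). The 4 measured genes of the CA1 pyramidal list, WFS1, MPPED1, NOV and PEX5L, were lower in DG (all genes, 20.8%), with a median of -0.56. The level of MPPED1 was 0.09, 0.93 and 3.49 RPKM at its lowest, median and highest in DG, against 3.56, 4.46 and 7.70 RPKM in CA1 (difference -1.45). MPPED1 passed the filter largely through CA1, which favours that direction, so no test is printed for it. Its place among the 4 lower genes has the same limit. In bulk tissue, fewer cells of a type and less RNA per cell cannot be told apart, here and below.

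**Figure D1:**
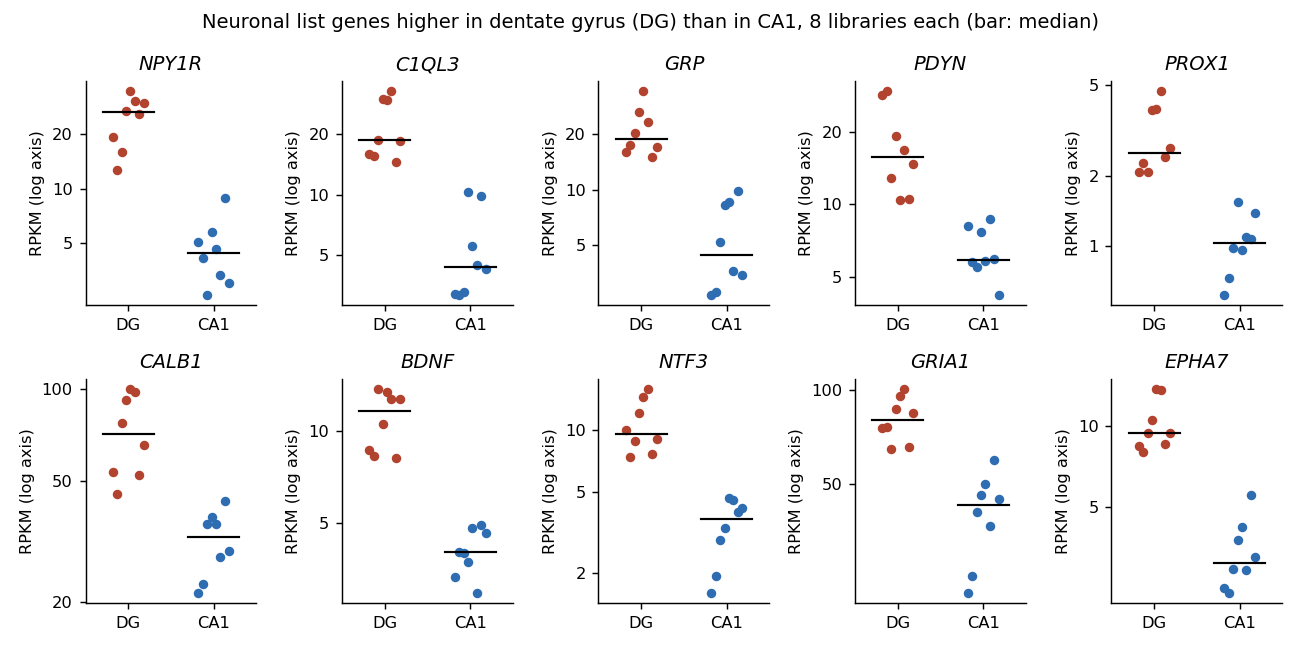
RPKM on a log axis in the 8 DG libraries (left) and 8 CA1 libraries (right) for 10 genes of the neuronal lists, with a bar at the median. In all 10 panels the lowest DG point lies above the highest CA1 point, for example 12.6 against 8.86 RPKM for NPY1R. The 10 genes were chosen by hand for display, so their count is not a result. Over all genes tested the regions did not overlap for 8.11%. Other members of these lists did overlap, with 6 of 10 dentate granule genes and 2 of 14 neuropeptides free of overlap.

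The highest difference among genes with a symbol and at least 5 RPKM in DG belonged to NPY1R, the Y1 receptor of neuropeptide Y. NPY1R ran from 12.6 (1M) through a median of 26.3 to 34.4 RPKM (10F) in DG and from 2.59 (4F) through 4.39 to 8.86 RPKM (20F) in CA1. The regions did not overlap, as was so for 8.11% of all genes tested. The difference was 2.16 ± 0.17 (adjusted p = 2.1e-05), and the mean was 24.3 ± 7.63 RPKM in DG and 4.67 ± 2.00 RPKM in CA1 (SD, n = 8 each). Of the other receptors of this peptide, NPY2R was at 1.38 to 2.50 RPKM in DG and 0.17 to 0.75 RPKM in CA1, and NPY5R at 1.17 to 1.52 RPKM in DG and 0.32 to 0.74 RPKM in CA1. Both passed the filter through DG alone, which favours that direction, so no test is given for them. The peptide itself, NPY, made by interneurons, was lower in DG in 8 of 8 sets, at 33.7 to 67.1 RPKM against 57.5 to 100.4 RPKM in CA1 (-0.66 ± 0.11, adjusted p = 0.00074).

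Of 14 measured neuropeptide genes, NPY included, 3 were higher in DG (all genes, 24.6%) and 6 lower (all genes, 20.8%). GRP, gastrin-releasing peptide, was the highest of them in difference. It had 15.05, 18.8 and 34.1 RPKM as lowest, median and highest in DG and 2.69, 4.43 and 9.86 RPKM in CA1, without overlap (1.83 ± 0.17, adjusted p = 2.4e-05). PDYN, the precursor of the dynorphins of mossy fibres, was at 10.4, 15.7 and 29.4 RPKM in DG and 4.20, 5.86 and 8.65 RPKM in CA1 (1.27 ± 0.15, adjusted p = 8.1e-05). PENK, the enkephalin precursor, was the third (0.73 ± 0.19, adjusted p = 0.0086). NTS, neurotensin, was lower in DG in 8 of 8 sets, at 0.14 to 7.47 RPKM against 1.99 to 7.74 RPKM in CA1, with overlapping ranges (-1.40 ± 0.24, adjusted p = 0.00093). VIP, PNOC, TAC1 and CRH were lower by -0.57 to -0.33. Of 8 measured receptors of peptides, NPY2R and NPY5R aside, 4 were higher in DG (all genes, 24.6%) and 1, SSTR3, was lower. SSTR3 had a median of 0.89 RPKM in DG and 1.52 RPKM in CA1. It passed the filter largely through CA1, which favours that direction, and its call has that limit. Another of the 8, CRHR1, had a median of 1.23 RPKM in DG and 0.905 RPKM in CA1. CRHR1 passed the filter largely through DG, which favours a higher value there, and the count has that limit. SSTR1, a somatostatin receptor, was higher without overlap (0.75 ± 0.09, adjusted p = 6.9e-05).

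Both measured neurotrophins were higher in DG. BDNF, brain-derived neurotrophic factor, had 8.18, 11.7 and 13.8 RPKM as lowest, median and highest in DG and 2.96, 4.01 and 4.95 RPKM in CA1 (1.24 ± 0.11, adjusted p = 2.4e-05). NTF3, neurotrophin 3, had 7.42, 9.57 and 15.98 RPKM in DG and 1.6, 3.66 and 4.64 RPKM in CA1 (1.42 ± 0.12, adjusted p = 2.3e-05). Neither gene overlapped between the regions, and NTF3 is also on the list of CA2 and CA3 markers. Of their receptors, NTRK3, which binds neurotrophin 3, was higher by 0.39 ± 0.09 (adjusted p = 0.0038), and NTRK2, which binds BDNF, stood at 0.04 ± 0.11 (adjusted p = 0.77). SORT1, sortilin, a receptor of their precursors, was the 1 lower gene of the 5 measured on this list (-0.28 ± 0.07, adjusted p = 0.0093).

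Of 13 measured synapse organizers 5 were higher in DG (all genes, 24.6%) and 2 lower (all genes, 20.8%), with a median of 0.19. C1QL3, a secreted C1q-like protein that organizes synapses, was at 14.4, 18.7 and 32.7 RPKM at its lowest, median and highest in DG and 3.16, 4.34 and 10.3 RPKM in CA1 (1.86 ± 0.18, adjusted p = 2.9e-05). Its relative C1QL2 was higher in 8 of 8 sets with overlap (0.95 ± 0.17, adjusted p = 0.0012), while C1QL1 was lower (-0.46 ± 0.13, adjusted p = 0.014). The next genes were named for the size of their difference and not as a group. FLRT3, an adhesion protein that binds latrophilins, was at 6.99 to 12.9 RPKM in DG and 2.25 to 3.68 RPKM in CA1 (1.43 ± 0.11, adjusted p = 1.9e-05). CDH9, a cadherin that in mice takes part in mossy fibre synapses, was at 7.91 to 11.7 RPKM in DG and 2.02 to 4.56 RPKM in CA1 (1.40 ± 0.13, adjusted p = 2.5e-05). PPFIA2, the presynaptic scaffold liprin-alpha-2, was higher by 1.39 ± 0.12 (adjusted p = 2.4e-05), and TANC1, a postsynaptic scaffold, by 1.44 ± 0.12 (adjusted p = 2.1e-05). IL1RAP, the interleukin 1 receptor accessory protein, which also forms synaptic adhesion complexes, was higher by 1.29 ± 0.13 (adjusted p = 3.8e-05). FLRT3, CDH9, PPFIA2, TANC1 and IL1RAP did not overlap between the regions. The other named genes were SLN, VWA5A, ZCCHC12, TSPAN18, DCLK3, LAMP5, FAM19A2, ARHGAP6, BTG1 and the gene of mml-mir-568, at 1.28 to 1.69, and NPY1R, GRP, NTF3 and EPHA7, described elsewhere.

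Of 12 measured Eph receptors and ephrins, membrane proteins that guide axons and shape spines, 4 were higher in DG (all genes, 24.6%) and 4 lower (all genes, 20.8%), with a median of 0.06. EPHA7 was at 7.99, 9.36 and 13.6 RPKM as lowest, median and highest in DG and 2.43, 3.13 and 5.57 RPKM in CA1 (1.33 ± 0.11, adjusted p = 2.3e-05). EPHA4 (0.81 ± 0.10, adjusted p = 0.00013) and the ligand EFNB3 (0.96 ± 0.11, adjusted p = 8.1e-05) also had no overlap. EPHB6 was lower by -0.83 ± 0.11 (adjusted p = 0.00022). EPHB4 was at 0.37 to 1.13 RPKM in DG, with a median of 0.785, and at 1.18 to 5.72 RPKM in CA1 (difference -1.07). It passed the filter largely through CA1, which favours that direction, so no test is printed for it. Its place among the 4 lower genes has the same limit.

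Of 14 measured ionotropic glutamate receptor subunits 6 were higher in DG (all genes, 24.6%) and 1, GRIK1, was lower (all genes, 20.8%), with a median of 0.17. Without the sets 1F, 1M and 4F, 7 were higher and 4 lower. GRIA1, a subunit of AMPA receptors, was at 64.6, 80.1 and 101 RPKM as lowest, median and highest in DG and 22.4, 42.6 and 59.6 RPKM in CA1 (1.03 ± 0.15, adjusted p = 0.00034). GRIA2 was also higher without overlap (0.57 ± 0.09, adjusted p = 0.00057). The kainate receptor subunit GRIK2 was higher by 0.82, at 1.56 to 2.91 RPKM in DG. In CA1 it was at 1.6 RPKM in 1F and at 0.56 to 0.94 RPKM in the other libraries. GRIK2 passed the filter largely through DG, which favours that direction, so no test is printed for it. Its place among the 6 higher subunits has the same limit. Of 5 metabotropic receptors 3 were higher and 1, GRM3, was lower. GRM7, a presynaptic receptor, was higher in 8 of 8 sets, at 1.49 to 2.40 RPKM in DG and 0.84 to 1.75 RPKM in CA1 with overlap (0.38 ± 0.07, adjusted p = 0.0016). GRM3 was at 11.98 to 23.8 RPKM in DG and 22.1 to 40.3 RPKM in CA1 (-0.91 ± 0.09, adjusted p = 4e-05).

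Receptors of the inhibitory transmitter GABA differed by subunit. Of 11 measured GABA-A subunits 6 were higher in DG (all genes, 24.6%) and 1 lower (all genes, 20.8%), with a median of 0.45. One of the 11, GABRG3, had a median of 1.45 RPKM in DG and 0.835 RPKM in CA1. It passed the filter largely through DG, which favours a higher value there, and the count has that limit. The beta subunit GABRB1 was at 25.6, 31.1 and 36.6 RPKM as lowest, median and highest in DG and 14.6, 17.4 and 20.4 RPKM in CA1, without overlap (0.77 ± 0.09, adjusted p = 6.5e-05). Among alpha subunits GABRA5 (0.69 ± 0.11, adjusted p = 0.00046) and GABRA2 (0.49 ± 0.10, adjusted p = 0.0017) were higher. GABRD, the delta subunit of receptors outside synapses, stood at 0.09 ± 0.18 (adjusted p = 0.68).

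Voltage-gated channel genes gave differences of moderate size. Of 17 measured potassium and HCN channel genes 9 were higher in DG (all genes, 24.6%) and 1, KCNA2, was lower (all genes, 20.8%), with a median of 0.23. KCNA4 (0.63 ± 0.10, adjusted p = 0.00055), KCNC4 (0.61 ± 0.07, adjusted p = 9.7e-05) and KCND3 (0.59 ± 0.10, adjusted p = 0.00074) were the highest of these. Of 14 sodium and calcium channel genes 4 were higher and 4 lower, close to the shares over all genes. SCN2A, a main sodium channel of axons, was at 12.5 to 19.3 RPKM in DG and 20.1 to 37.2 RPKM in CA1, without overlap (-0.70 ± 0.08, adjusted p = 9.2e-05).

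Among genes of inhibitory neurons 3 of 14 measured were higher in DG (all genes, 24.6%) and 5 lower (all genes, 20.8%). PVALB, parvalbumin of fast-spiking interneurons, was at 2.64, 4.84 and 8.82 RPKM as lowest, median and highest in DG and 9.89, 15.2 and 24.05 RPKM in CA1. The regions did not overlap, and the difference was -1.51 ± 0.14 (adjusted p = 2.4e-05). LAMP5 went the other way, at 22.8 to 45.8 RPKM in DG and 5.49 to 17.9 RPKM in CA1 (1.33 ± 0.14, adjusted p = 4.4e-05). GAD1, the main enzyme of GABA synthesis, was higher by 0.29 ± 0.11 (adjusted p = 0.043), and the vesicular transporter SLC32A1 stood at -0.21 ± 0.09 (adjusted p = 0.069). BOK, a BCL2 family gene on the list of CA2 and CA3 markers, was lower in DG, at 2.71 to 7.76 RPKM against 9.39 to 28.2 RPKM in CA1 (-1.57 ± 0.19, adjusted p = 0.00011). Of 14 genes that mark neurons in general 4 were higher, close to the share over all genes, and 1 lower (GAP43), with a median of 0.09. Without the sets 1F, 1M and 4F, 4 were higher and 3 lower. Of 8 genes of excitatory neurons 3 were higher and none lower, and of 6 measured genes of the CA2 and CA3 list 3 were higher and 1, BOK, was lower (2 higher and 2 lower without these sets). The higher genes of that list include NTF3 (1.42), described above as a neurotrophin. The part of CA2 or CA3 tissue in the DG libraries was not tested. None of 8 mitochondrially encoded genes differed at an adjusted p under 0.05 in limma (0 at an unadjusted p under 0.05), and 2 were lower without these sets.

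**Figure D2:**
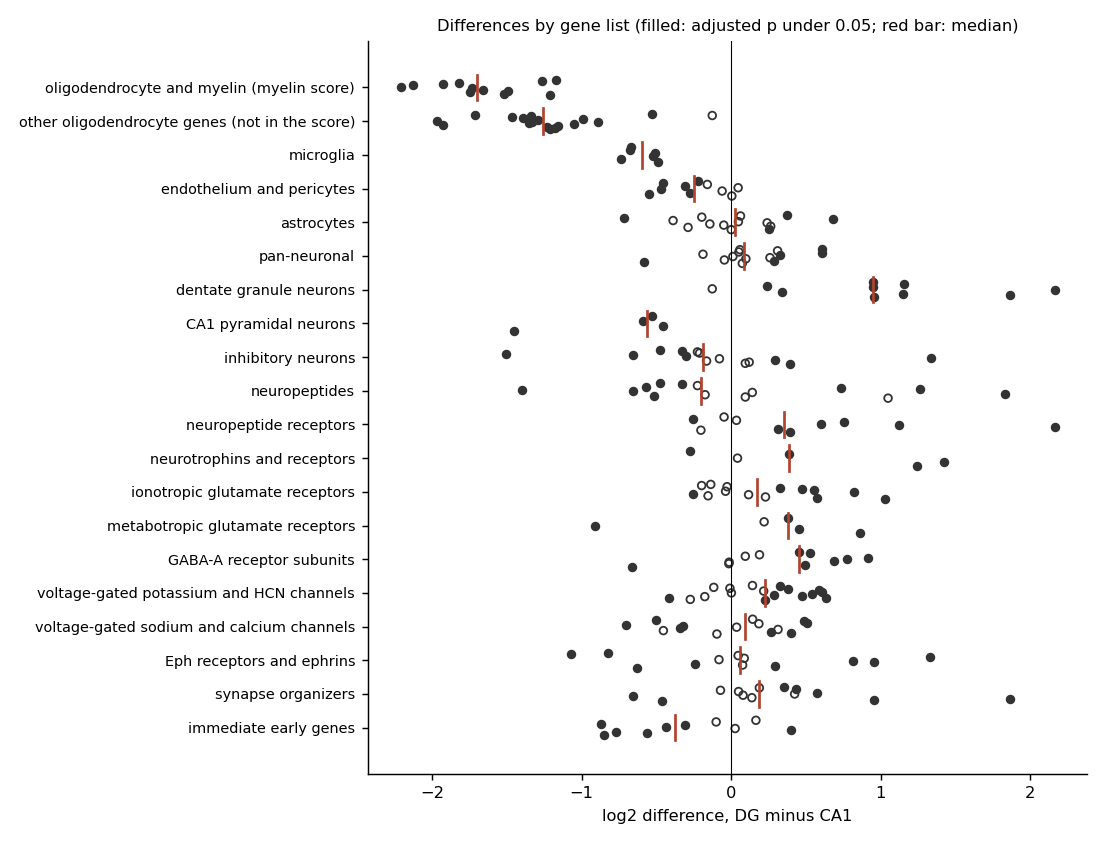
log2 difference, DG minus CA1, of each measured member of 20 gene lists, with filled points for an adjusted p under 0.05, open points for others and a red bar at the list median. The 2 oligodendrocyte lists lie far to the left, at medians of -1.70 and -1.26, and dentate granule neurons farthest to the right, at 0.95.

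Immediate early genes, whose transcription follows neuronal firing, were lower in DG for 6 of 10 measured (all genes, 20.8%), and 1, EGR3, was higher (median -0.37). ARC was at 2.29 to 7.84 RPKM in DG and 4.62 to 15.3 RPKM in CA1 (-0.85 ± 0.15, adjusted p = 0.00087). NR4A1 was at 0.34 to 3.18 RPKM in DG and 0.87 to 5.22 RPKM in CA1 (difference -0.87). Both were lower in 8 of 8 sets. In DG only the library 4F reached 1 RPKM for NR4A1, with the others at 0.34 to 0.90. NR4A1 thus passed the filter largely through CA1, which favours that direction, so no test is printed for it. Its place among the 6 lower genes has the same limit. The highest DG value of ARC, NR4A1, EGR1 and DUSP1 was that of DG 4F, the library with the high RGS4 level.

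Myelin genes had the lowest median of the 28 gene lists compared, which were drawn up with earlier results on myelin genes in these data known. All 12 measured genes of the oligodendrocyte and myelin list were lower in DG (all genes, 20.8%), each with a difference beyond -1 (all genes, 1.47%), and their median was -1.70. MBP, myelin basic protein, had 427, 767 and 1300.1 RPKM as lowest, median and highest in DG and 2372, 3332 and 4636 RPKM in CA1, without overlap (-2.21 ± 0.19, adjusted p = 2.3e-05). MOBP, another protein of compact myelin, was at 17.5 to 61.7 RPKM in DG and 92.6 to 225 RPKM in CA1 (-2.13 ± 0.16, adjusted p = 1.9e-05). Of 18 further oligodendrocyte genes 17 were lower, 14 of them by at least 1, with a median of -1.26. They include the transcription factors NKX6-2 (-1.97 ± 0.22, adjusted p = 5.5e-05) and SOX10 (-1.34 ± 0.17, adjusted p = 0.00011) and the gap junction protein GJB1 (-1.93 ± 0.18, adjusted p = 2.6e-05). ST18 was the exception, at -0.13 ± 0.12 (adjusted p = 0.39). Of the 20 named genes with the lowest differences 10 stood on these lists, and another was a second row under MBP.

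The mean log2 level of those 12 myelin genes served as a myelin score. It was 4.00, 4.30, 4.75, 4.03, 3.53, 3.65, 4.61 and 4.51 in DG of the sets 1F, 1M, 4F, 4M, 10F, 10M, 20F and 20M, and 5.55, 5.55, 6.17, 5.91, 5.49, 6.41, 5.51 and 6.05 in CA1. Every CA1 library lay above every DG library. The DG minus CA1 difference averaged -1.66 ± 0.56 (SD, n = 8 sets), from -2.76 in 10M to -0.90 in 20F. The same score ran from 2.13 to 4.59 in the 24 neocortical libraries.

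**Figure D3:**
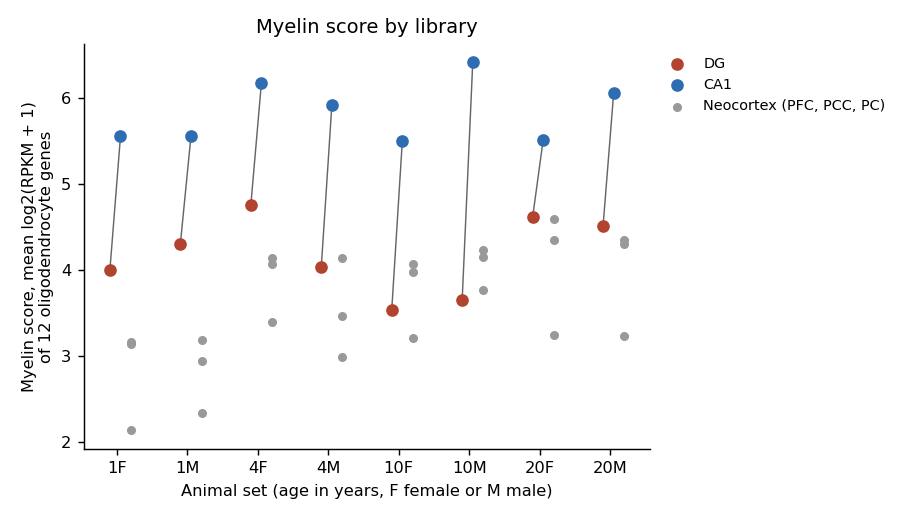
Myelin score (mean log2(RPKM + 1) of 12 oligodendrocyte genes) of the DG and CA1 library of each animal set, joined by a line, beside the 3 neocortical libraries of the same age and sex in grey. DG lies between 3.53 and 4.75, below CA1 in every set, and CA1 between 5.49 and 6.41.

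To set the myelin difference apart, each gene was given a slope on the myelin score across the 24 neocortical libraries, with region and animal set held fixed. Within region and set the neocortical score varied with an SD of only 0.19, and every CA1 score lay above the neocortical range, so applying these slopes to a mean difference of -1.66 is an extrapolation. Few genes had a slope beyond the test, 21 (0.187%). The 20 positive slopes (0.178%) were led by MBP (1.74 ± 0.20 log2 units per unit of score) and MOBP (1.49), and CLEC2B alone was negative (0.00888%), at -1.13 ± 0.21. At an unadjusted p under 0.05 in limma, 615 of all 11260 genes had a slope, in either direction. The large differences between DG and CA1 divided by sign. Of the 165 genes lower in DG by at least 1, 64 had a positive slope at an unadjusted p under 0.05 and 2 a negative one, while of the 73 higher genes 6 had a positive slope and 8 a negative one. The 26 genes of the oligodendrocyte lists among them had a median slope of 0.86, and the 16 genes of the neuronal lists had a median of -0.04. Of these 16 genes 12 were higher in DG and 4 lower. Of the 26 genes 12, with MBP and MOBP, make up the score itself. Positive slopes are built into those 12 as a set, so they are no separate evidence.

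**Figure D4:**
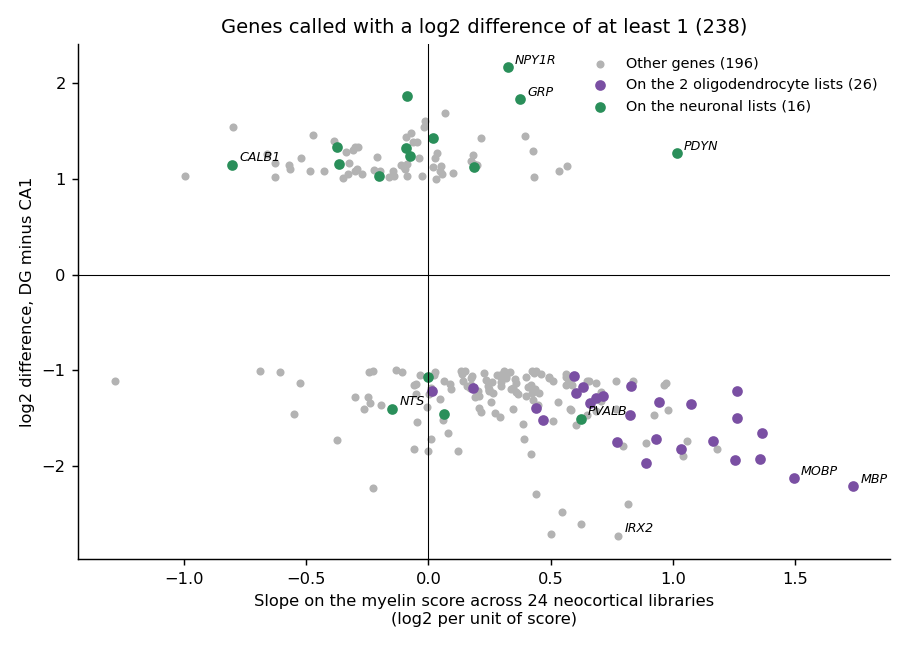
log2 difference between DG and CA1 against the slope on the myelin score in neocortex for the 238 genes called with a difference of at least 1. The 26 genes of the oligodendrocyte lists (purple) lie at the lower right, with slopes up to 1.74, and the 16 genes of the neuronal lists (green) spread about a median slope of -0.04. Of the 26 genes 12 make up the score, so positive slopes are built into them as a set.

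Taking slope times score out of every library changed some differences much and others little. The value for MBP was then 0.67 ± 0.36 and for NKX6-2 -0.50 ± 0.36, and the medians of the 2 oligodendrocyte lists were 0.05 and -0.13. The first of these lists, which holds MBP, makes up the score. Its mean after the step was thus fixed in advance and is not a result. The median over genes that mark neurons in general was 0.85 after the step, against 0.09 before it, and that of excitatory neurons 0.91, against 0.22. The dentate granule list went the other way, with 0.56 after the step, below both, against 0.95 before it, and the CA1 pyramidal list had -1.38, against -0.56. These errors carry the uncertainty of the slope. Neuronal genes with slopes from -0.09 to 0.38 stayed at 1 or more, with NPY1R at 2.70 ± 0.43, GRP at 2.45 ± 0.43, FLRT3 at 1.79 ± 0.29, C1QL3 at 1.72 ± 0.49, NTF3 at 1.45 ± 0.30, BDNF at 1.12 ± 0.48 and PROX1 at 1.06 ± 0.25. PDYN, with a positive slope, stood at 2.95 ± 0.50. Neuronal genes with slopes from -0.80 to -0.55 came close to 0, with CALB1 at -0.18 ± 0.43, C1QL2 at -0.18 ± 0.45, NEUROD1 at -0.005 ± 0.38 and ZCCHC12 at 0.22 ± 0.50. PVALB was reduced to -0.47 ± 0.46 and BOK to -0.57 ± 0.35. MPPED1 (-1.34 ± 0.36) was reduced by less than its error, and NTS (-1.65 ± 0.50) became larger in size, also by less than its error. With the slope error carried no gene passed an adjusted p of 0.05 in limma, and 867 had an unadjusted p under 0.05, so these values describe and do not test. With the slope taken as known, which understates the error, 6215 genes passed (55.2%), 3624 higher (32.2%) and 2591 lower (23.0%), and 429 did so with at least 1 (3.81%), 149 higher (1.32%) and 280 lower (2.49%).

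Of the 73 genes higher by at least 1, 35 kept a difference of at least 1 in that direction after this step, and of the 165 lower genes 48 did. Among genes with a symbol that passed with the slope taken as known, with 1 direction in 8 of 8 sets and at least 5 RPKM, the highest after the step were PDYN, NPY1R, GRP, NPTX1, IL1RAP, PEG10, SLN, FLRT3, GABRA5, CHN2, UST, C1QL3, RIT2, TNNT2 and VWA5A, from 2.95 to 1.59. NPTX1, a neuronal pentraxin that gathers AMPA receptors, stood at 2.07 ± 0.33, against 1.13 before the step. The 15 lowest were led by DRA, KIAA0748, SNORD99, NOV and APOC1, at -3.23 to -2.37. DRA, CD74 and MAMU-DPB1 of antigen presentation were among these, with neocortical slopes of -1.28, -0.82 and -0.75. Some of the genes named here did not differ in limma before the step. They were CHN2 (0.04, adjusted p = 0.68), SNORD99 (-0.21, adjusted p = 0.22) and APOC1 (-0.20, adjusted p = 0.51). Nearly all of their value after the step came from the slope. With the score as a covariate in the DG and CA1 libraries in place of the neocortical slope, DRA (0.62), NOV (0.052) and CD74 (0.93) changed sign.

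Other glia and vessels differed less than oligodendrocytes. All 6 measured microglial genes were lower in DG (all genes, 20.8%), with a median of -0.60, among them C1QC, a complement subunit (-0.73 ± 0.15, adjusted p = 0.0025). Of 10 endothelial and pericyte genes 6 were lower (all genes, 20.8%), with CLDN5, a tight junction protein, at -0.55 ± 0.11 (adjusted p = 0.0025). Of 14 astrocyte genes 3 were higher (all genes, 24.6%) and 1 lower, with a median of 0.02, but 2 were higher and 6 lower, with a median of -0.21, without the sets 1F, 1M and 4F. GFAP, the intermediate filament of astrocytes, was at 596 to 1215 RPKM in DG and 633 to 1606 RPKM in CA1 (-0.14 ± 0.20, adjusted p = 0.59). Of 5 oligodendrocyte precursor genes PTPRZ1 was higher (0.64 ± 0.08, adjusted p = 0.00015) and PDGFRA (-0.31 ± 0.10, adjusted p = 0.02) and NEU4 (-0.83) were lower. NEU4 had a median of 0.895 RPKM in DG and a lowest value of 1.65 RPKM in CA1. It passed the filter largely through CA1, which favours that direction, so no test is printed for it. TTR, the main transcript of choroid plexus, spread from 60.7 to 535 RPKM in DG and from 85.3 to 1029 RPKM in CA1 (-0.93 ± 0.34, adjusted p = 0.04), and the call was lost without any of the sets 4F, 10F, 10M, 20F and 20M, with adjusted p of 0.055 to 0.098, and with no pairing by set (0.16). The summed level of the 5 measured choroid plexus genes, of which 3 were lower (5 without the sets 1F, 1M and 4F), was 63.5 to 542 RPKM in DG and 91.1 to 1045 RPKM in CA1, with KCNJ13 and FOXJ1 listed at 0. P2RY12, a defining gene of microglia, is listed at 0, and the 6 microglial genes summed to 53.1 to 146 RPKM in DG and 92.4 to 177 RPKM in CA1. HBB, a haemoglobin gene of blood, was lower in DG (-1.01 ± 0.19, adjusted p = 0.0015), and DCN, of the 2 measured meningeal genes, by -0.23 ± 0.07 (adjusted p = 0.024). The part of these tissues in the neuronal differences was not tested.

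A group of genes with the lowest differences in the comparison moved together within CA1. IRX2, a homeobox gene, was at 4.67, 4.19, 7.65, 5.58, 4.04, 6.77, 3.19 and 3.74 RPKM in DG of the sets 1F, 1M, 4F, 4M, 10F, 10M, 20F and 20M, and at 6.87, 11.4, 190.3, 94.5, 75.2, 27.4, 54.4 and 21.7 RPKM in CA1. CA1 thus ranged 27.7-fold and DG 2.40-fold, and the lowest CA1 library lay below the highest DG library. The difference was -2.73 ± 0.40 (adjusted p = 0.0003). KLHL34 was 0.929 to 0.994 times the level of IRX2 in every CA1 library and 0.894 to 1.08 times in DG. ELMSAN1 was 4.21 to 5.80 times IRX2 in CA1, HOXA10 0.556 to 0.889 times and SPNS1 1.83 to 3.11 times. STARD13 (-1.88 ± 0.27, adjusted p = 0.0003) and CD300LG (-1.84 ± 0.30, adjusted p = 0.00058) ranged 11.1-fold and 11.8-fold over the CA1 libraries. ELMSAN1 and HOXA10 were named after their values were seen. In the neocortex IRX2 ranged from 3.97 to 46.7 RPKM. Whether reads are shared between these genes was not tested.

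The DG minus CA1 difference also moved with age for many genes in the deposited values. The slope of the difference per doubling of age passed the test for 1880 genes (16.7%), 170 upward (1.51%) and 1710 downward (15.2%). Total RPKM moved in opposite ways with age, with 397200 to 411357 in DG and 374486 to 443648 in CA1 at 1 and 4 years, against 322364 to 366110 in DG and 416481 to 508979 in CA1 at 10 and 20 years. The median slope over all genes was -0.06. With libraries rescaled by the median ratio 250 genes passed, 133 upward and 117 downward. No gene passed without the set 1F, without 1M or with age in years, so the calls depend on these sets and on the scale of age. In limma 2629, 2242 and 2470 genes then had an unadjusted p under 0.05.

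Of 7 measured genes of immature neurons and progenitors 6 had a slope below 0 that passed (all genes, 15.2%), with a median of -0.26, and 3 did so after median-ratio scaling. Astrocyte genes moved the same way, with 7 of 14 passing downward (median -0.18), among them GFAP (-0.34, adjusted p = 0.022), and so did 3 of 6 microglial genes (median -0.21). After median-ratio scaling 2 astrocyte genes and no microglial gene passed in limma, with 3 microglial genes at an unadjusted p under 0.05. The part of these cells in the progenitor values was not tested. Over all ages NEUROD1 was higher in DG (0.91 ± 0.15, adjusted p = 0.00055) and SOX11, DPYSL5 and STMN1 were lower, by -0.60 to -0.45. Without the sets 1F, 1M and 4F, 1 was higher and 6 lower, with a median of -0.68. SOX11 had a median of 0.815 RPKM in DG and a lowest value of 1.42 RPKM in CA1. It passed the filter largely through CA1, which favours that direction, and its place among the lower genes has that limit. SOX11, a transcription factor of newborn neurons, was at 3.26 and 3.21 RPKM in DG 1F and 1M, 1.39 and 1.07 in 4F and 4M, 0.56 and 0.51 in 10F and 10M, and 0.54 and 0.42 in 20F and 20M. In CA1 it was at 2.40, 2.44, 2.32, 1.73, 1.98, 1.42, 1.86 and 1.50 RPKM in the same order of sets. The values in DG thus went down with age in both sexes, past those of CA1. The slope was -0.28 per doubling of age (adjusted p = 0.01), and it passed under median-ratio scaling too (-0.25, adjusted p = 0.027). NES, the filament of progenitors, had a slope of -0.34 (adjusted p = 0.01), and TUBB2B, a tubulin of growing neurons, of -0.25 (adjusted p = 0.012). NEUROD1, which takes part in granule cell formation, was at 12.1 to 13.1 RPKM in DG and 3.37 to 3.62 RPKM in CA1 at 1 year and at 12.2 to 13.2 RPKM in DG and 8.91 to 10.4 RPKM in CA1 at 20 years, so the difference of -0.26 per doubling (adjusted p = 0.014) came with higher CA1 values. DCX, a defining gene of newborn neurons, did not pass the filter.

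**Figure D5:**
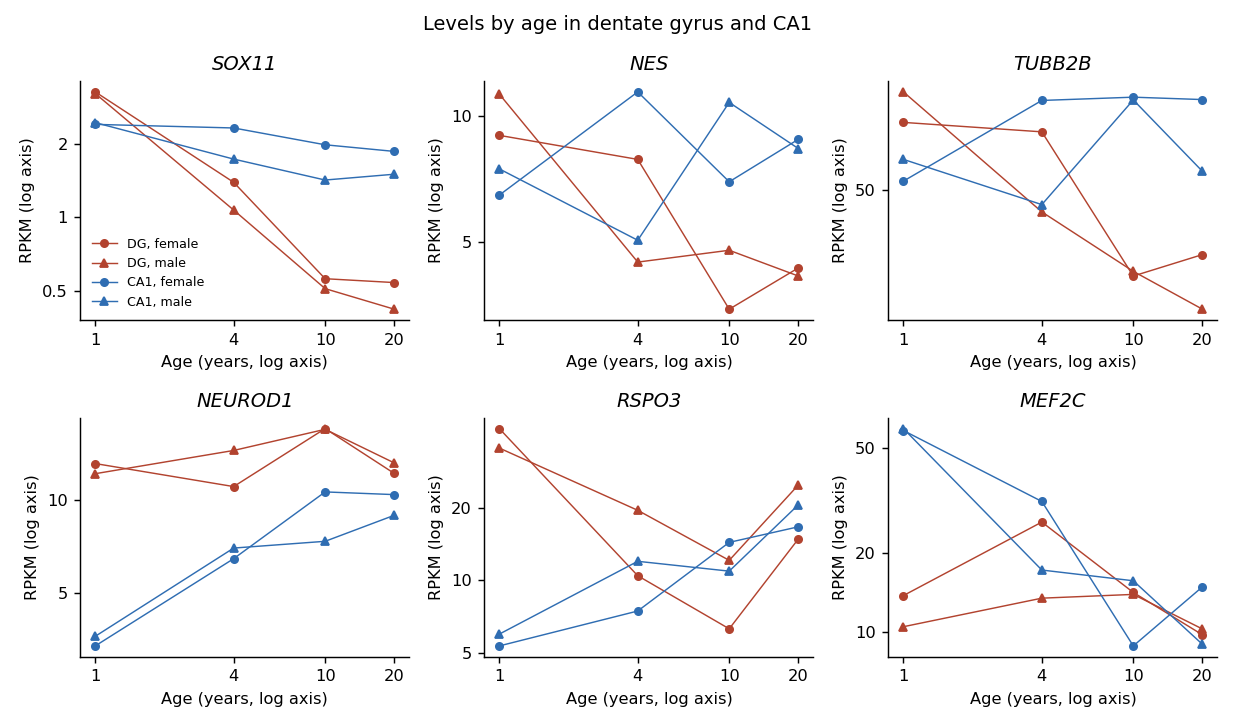
RPKM on a log axis against age in years on a log axis in DG (red) and CA1 (blue), with a line for each sex, for 6 genes whose DG minus CA1 difference changed with age. SOX11 in DG goes from 3.26 RPKM in 1F down to 0.42 RPKM in 20M, while CA1 stays between 1.42 and 2.44 RPKM, and NEUROD1 in CA1 goes from 3.37 RPKM in 1F up to 10.4 RPKM in 20F.

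Of the genes named by size of slope, CARTPT, the precursor of a neuropeptide, fell most, by 0.77 per doubling (adjusted p = 0.021), followed by RSPO3, a Wnt pathway ligand (-0.65, adjusted p = 0.012), PAGE4, CABP7 and DOC2B. RSPO3 was at 42.9 and 35.5 RPKM in DG 1F and 1M and 14.9 and 25.0 RPKM in DG 20F and 20M, against 5.33 and 5.97 and then 16.7 and 20.6 RPKM in CA1. The genes that went up were MEF2C (0.50, adjusted p = 0.02), a transcription factor of neurons, TMEM155, SPON2, NGEF and ACTA2. MEF2C was at 9.74 to 26.2 RPKM in DG, against 58.3 and 59.3 RPKM in CA1 1F and 1M, the libraries with high RGS4, and 8.84 to 31.3 RPKM in the other CA1 libraries. The DG minus CA1 difference did not differ between females and males for any gene at an adjusted p under 0.05 (limma), and 221 genes had an unadjusted p under 0.05.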

How the data were processed

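The authors deposited a single table of RPKM values for 26654 genes and 64 libraries, and the 16 DG and CA1 columns were compared. Per the submitters' processing notes the tools include TopHat2 and Cufflinks 2.2. With build, annotation and counting rule not given in the sources used here, sharing of reads between genes could not be examined. Read depth is unknown.

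Tests used limma 3.58.1 in R 4.3.3 on log2(RPKM + 1) with an intensity trend and the animal set as a fixed block, with Benjamini-Hochberg adjustment over 11260 genes. Age and sex terms were fitted to the 8 paired differences. Slopes on the myelin score came from 24 neocortical libraries with region and animal set as terms. The same functions were tested on simulated data. Genes with a symbol were named from the 20 highest and 20 lowest differences that were called, had the same direction in 8 of 8 sets and reached 5 RPKM (15 each with the myelin part taken out, 5 each for age), besides members of 28 lists. Libraries, lists and members were chosen with earlier results of these data known, among them NPY1R, PROX1 and the myelin genes. Of the 11260 genes 1133 had no symbol, 19 of these because a spreadsheet had turned it into a date. Figures were drawn with matplotlib 3.10.9 in Python 3.11.15.

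Alternatives covered the pseudocount, the filter, scaling, the block, the libraries fitted, the myelin score, and each animal set left out. Added after the data were seen were the carried slope error, a slope without terms, a fit without 3 animal sets and scaling within the 16 libraries.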

Additional observations from a re-analysis of the deposited data

Results flagged for a closer look

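In 200 groups of 8 libraries (100 genes in DG and in CA1) the highest or lowest library stood far from the nearest of the others in 17. The rule flags about 1 in 20 groups of independent values. The genes here were those named or described, in part for such values, and they are not independent. The count of 17 is therefore not set against chance. In 10 of the 17 groups the library apart was DG 4F, on the high side. Its values were 88.1 RPKM for RGS4 (other DG libraries 5.65 to 16.4), 14.3 for KIAA0748 (0.12 to 1.26), 26.2 for MEF2C (9.74 to 14.1), 23.8 for GRM3 (11.98 to 15.8), 16.8 for EGR1 (3.67 to 6.21), 7.84 for ARC (2.29 to 4.11), 5.99 for DUSP1 (2.03 to 3.23), 5.76 for PEX5L (3.64 to 4.23), 3.28 for STARD13 (1.50 to 2.09) and 3.18 for NR4A1 (0.34 to 0.90). In DG the library 20F was low for EFNB3, at 5.62 RPKM (7.31 to 8.65).

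In CA1 the library 10M was high for MAG, at 115 RPKM (other CA1 libraries 53.3 to 76.1), and for WFS1, at 16.4 RPKM (9.09 to 11.7). CA1 20F was high for SLN, at 6.53 RPKM (1.16 to 2.29), and low for NTS, at 1.99 RPKM (4.35 to 7.74). CA1 4M was high for NPY2R, at 0.75 RPKM (0.17 to 0.41), and CA1 1F for GRIK2, at 1.6 RPKM (0.56 to 0.94).

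The effect of age differed between DG and CA1, by the slope of their difference per doubling of age, for 18 of the genes examined one by one. Upward were MEF2C (0.50), TMEM155 (0.50), SPON2 (0.47), NGEF (0.45) and ACTA2 (0.42). Downward were CARTPT (-0.77), RSPO3 (-0.65), PAGE4 (-0.63), CABP7 (-0.56), DOC2B (-0.54), NES (-0.34), NOV (-0.32), C1QL2 (-0.31), SOX11 (-0.28), NEUROD1 (-0.26), TUBB2B (-0.25), PDYN (-0.21) and DPYSL5 (-0.20).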

How the results depend on the processing

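The count of 5112 genes was 2972 at a mean of 5 RPKM or more, where fewer genes were tested, and 4014 to 5100 with each animal set left out in turn. The 73 higher and 165 lower genes with a difference of at least 1 numbered 158 and 299 with a pseudocount of 0.1, 65 to 96 and 131 to 205 with each set left out, and 298 lower without the sets 1F, 1M and 4F. The described genes of this comparison kept direction and call in 1651 of 1661 checks. The exceptions were TTR, which lost its call in 7, EGR1 with no replicate block (-0.77, adjusted p = 0.08) and GFAP, not called, which was 0.031 under quantile normalization and -0.51 (adjusted p = 0.012) without the 3 sets.

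The samples of a set share a number and an age and sex, and whether they share animals is not stated. Deviations from the region means correlated above 0.1 in 6 of 8 sets (mean 0.21, against -0.03 between other libraries), and 4 of 8 DG libraries matched their own set best. With no replicate block 4860 genes were called, 74 higher and 165 lower by at least 1.

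The neocortical slope was called for 13 genes with no filter and 33 under quantile normalization. With the myelin part taken out and the slope error ignored 6215 genes were called, 12266 with no filter, 3332 at a mean of 5 RPKM or more, and 5400 to 6414 with each set left out. The counts with a difference of at least 1, 149 higher and 280 lower, were 283 and 464 with a pseudocount of 0.1, 87 and 105 at a mean of 5 RPKM or more, 140 to 255 and 227 to 396 with each set left out, and 271 and 486 without the 3 sets. With the slope error carried, and with the myelin score as a covariate with or without the replicate block, 0 genes were called by limma, with 867, 415 and 1253 at an unadjusted p under 0.05. A slope without region and set terms, error carried, gave 2247, with 151 lower by at least 1. Values that changed sign with the score as a covariate and the block were CHN2 (-0.13), TNNT2 (-0.84), DRA (0.62), NOV (0.052), U3 (0.21), CD74 (0.93), PTGDS (0.29), HBB (0.26), OLFML3 (0.32), S100A6 (0.38), MAMU-DPB1 (0.35) and PLAC9 (0.10). Those without the block were DRA (1.39), NOV (0.42), U3 (0.49), CD74 (1.26), HBB (0.19), OLFML3 (0.62), S100A6 (0.42) and MAMU-DPB1 (1.05), and GABRA5 was -0.42 with the slope without terms. The cause was not tested.

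The 1880 age calls became 250 with median-ratio scaling, 226 with quantile normalization, 254 with median-ratio scaling within the 16 libraries, and 0 with no filter or with age in years. Leaving out 1 set gave 0 to 1807, with 0 without 1F or 1M, 1089 without 4M and 827 without 10F. All 18 described age genes lost the call in 1 or more settings (116 of 282 checks) and kept their sign. No sex call was made under any alternative run. Depth is unknown, so no interval or floor for low genes can be given.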
